A study of Saccharomyces cerevisiae with 44 samples.

Results

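The comparison described here is the loss of Ctf19 in budding yeast cells that already lacked Fkh activity, read from the IP libraries of ctf19∆ fkh1∆ fkh2-dsm and of fkh1∆ fkh2-dsm. These are 4 of the 20 QBU IP libraries and of the 44 samples of the series, 2 per strain, and they were chosen by the genotype in their labels. QBU sequences DNA that was copied in the presence of the thymidine analogue BrdU and recovered with an antibody against it (IP), next to input DNA from those cells (Total). Both strains are W303 derivatives with bar1∆, a BrdU-incorporation cassette at ura3, a deletion of FKH1 and the fkh2-dsm allele of FKH2, and the triple mutant also carries ctf19Δ::TRP1. The study uses the fkh2-dsm allele as one that lacks the origin function of Fkh2 without the further defects of an FKH2 deletion. Each strain was 1 haploid line, and its 2 replicates are not stated to be separate cultures, so p-values measure the spread between replicate libraries. For the edgeR tests below, this spread was estimated over all 20 IP libraries and not from these 4 alone. Cells were arrested in G1 with α-factor and released at 23 °C into 200 mM hydroxyurea (HU) with 400 µg/mL BrdU for 60 min. WT and ctf19∆ were treated in the same way and serve as the comparison in cells with Fkh activity. WT carries its BrdU cassette at leu2 and ctf19∆ at ura3, and neither has a change in FKH1 or FKH2. The strain fkh1∆ serves below to define Fkh1-dependent peaks. The remaining IP libraries are from mutants of the kinase subunit Dbf4. In dbf4∆C its C-terminal end is missing, and the alleles dbf4-Zn*1 and dbf4-Zn*2 alter its Zn finger, each in cells that have or lack FKH1. The peaks below and the spread in the edgeR tests thus rest in part on Dbf4 mutants.

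Origins of replication are licensed in G1 and fire when the kinase Dbf4-Cdc7 (DDK) acts on the loaded helicase, and DDK is limiting, so origins compete for it. Ctf19 is a subunit of the COMA complex of the kinetochore, and the kinetochore recruits Dbf4 to centromeres, which makes the origins beside centromeres (CEN-proximal origins) fire early. The forkhead proteins Fkh1 and Fkh2 bind near many origins along the chromosome arms and also promote their early firing. HU depletes nucleotides and stalls forks, so that BrdU marks the DNA around origins that fired early and little else.

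The deletions in the labels were read from the files first. CTF19 held 0 counts in the 4 IP and Total libraries of ctf19∆ fkh1∆ fkh2-dsm, where 56.1 to 164.5 would be present at the genome-wide mean, and 7 to 341 counts in those of fkh1∆ fkh2-dsm. FKH1 held 0 counts in the Total libraries of both strains. The IP totals were 469607 and 281531 counts in fkh1∆ fkh2-dsm and 1102102 and 615918 in ctf19∆ fkh1∆ fkh2-dsm, summed over 50-bp bins, and a read adds a count to each bin it overlaps. Across 285 origin peaks (defined below), the squared correlation of the 2 replicates was 0.934 and 0.940, and between the strains it was 0.281 to 0.332. All levels are relative to the mean of the same library. The absolute amount of DNA recovered could not be compared, since the ratio of IP to Total counts was 0.120 and 0.646 in fkh1∆ fkh2-dsm and 0.611 and 0.491 in ctf19∆ fkh1∆ fkh2-dsm. A loss in one place therefore raises the relative level of all others by construction, and edgeR with the Total library as library size called 0 windows and 0 peaks in either direction, with 61 windows lower and 265 higher, and 9 peaks lower and 1 higher, at an unadjusted p under 0.05.

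Ctf19 loss removed most of the signal around centromeres that stood in cells without Fkh activity. In fkh1∆ fkh2-dsm, the DNA within 25 kb of the 16 CENs, 6.63% of the genome, took 27.0% and 28.8% of all counts, and in ctf19∆ fkh1∆ fkh2-dsm it took 9.41% and 9.34%. The groups did not overlap, and the means differed by -18.5 percentage points, with an SD between replicates of 1.31 points in fkh1∆ fkh2-dsm and 0.0556 in the triple mutant (n = 2 each). An exact two-sided permutation test of 2 against 2 libraries cannot go below p = 0.33, the value it gave here. The innermost 10 kb fell further, from 13.7% and 14.5% to 3.20% and 3.18%, than the zone of 10 to 25 kb, from 13.3% and 14.3% to 6.21% and 6.16%. The zone of 25 to 50 kb held 5.96% in each library of fkh1∆ fkh2-dsm, against 5.67% and 5.83% in the triple mutant.

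**Figure D1:**
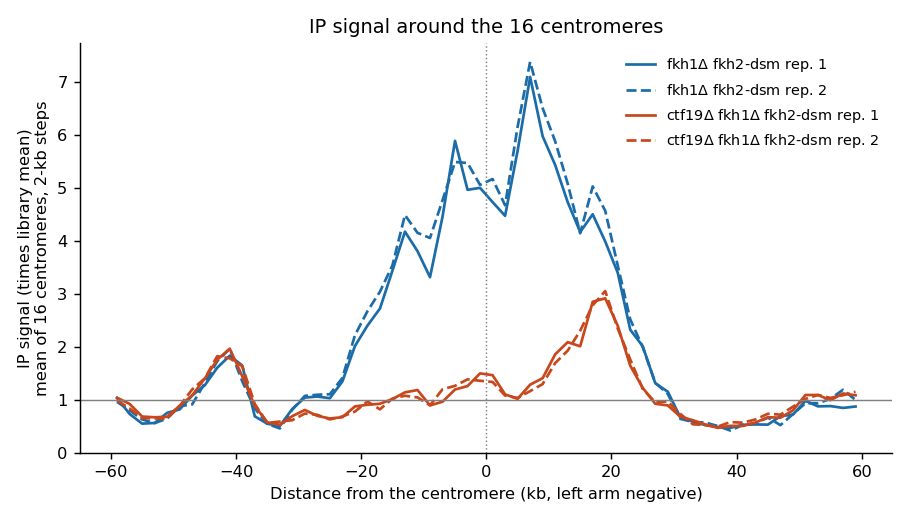
IP signal (times library mean, vertical axis) against distance from the centromere (kb, left arm negative), averaged over 16 CENs in 2-kb steps, 1 line per library. Both fkh1∆ fkh2-dsm lines peak 7 kb to the right, at 7.10 and 7.39, where both ctf19∆ fkh1∆ fkh2-dsm lines are at 1.28 and 1.16, and the latter have a shoulder of 2.92 and 3.05 at 19 kb on the right.

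The profile by distance shows how far the loss reached. In the step centred 7 kb to the right of the CENs the mean signal was 7.10 and 7.39 times the library mean in fkh1∆ fkh2-dsm and 1.28 and 1.16 in the triple mutant. At 19 kb to the right it was 3.99 and 4.57 in fkh1∆ fkh2-dsm and 2.92 and 3.05 in the triple mutant, the highest value of the triple mutant within 25 kb. At 41 kb to the left, where another rise lies, the strains overlapped, with 1.83 and 1.96 in fkh1∆ fkh2-dsm and 1.96 and 1.78 in the triple mutant.

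Counts in consecutive 1-kb windows were then tested with edgeR over 11231 windows, with all 20 IP libraries in the fit. Of these windows, 623 (5.55%) were lower and 986 (8.78%) higher in ctf19∆ fkh1∆ fkh2-dsm at an adjusted p under 0.05. The balance of the directions depends on the fit, with 712 lower and 450 higher with TMM factors and 359 and 64 with the 4 libraries alone. Of the lower windows, 75.1% lay within 25 kb of a CEN, a zone with 7.06% of the windows tested. Within 10 kb of a CEN, 239 of 319 windows fell and 0 rose. Their median log2 fold change was -2.08, and over all windows it was 0.29. At 10 to 25 kb, 229 of 474 fell and 5 rose (median -0.92). At 25 to 50 kb, 60 of 753 fell and 30 rose (median 0.02), and beyond 50 kb 95 of 9685 fell and 951 rose (median 0.37, and 0.20 with TMM factors). The 95 distant lower windows had low levels, with a median of 0.746 times the mean in fkh1∆ fkh2-dsm and 0.192 in the triple mutant, and 21 of them reached the mean in fkh1∆ fkh2-dsm. Adjacent lower windows merged into 24 runs of at least 5 kb, of which 23 lay within 25 kb of a CEN on 15 chromosomes. The longest run, 35 kb on chromosome IX from 332001 to 367000, held CEN9, and its mean signal was 6.18 and 6.55 in fkh1∆ fkh2-dsm and 0.872 and 0.822 in the triple mutant. Higher windows formed 733 runs of at most 8 kb, and of the 11 that reached 5 kb 0 lay within 25 kb of a CEN.

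Single origins were read as peaks. The 285 peaks are bins of at least 2 times the mean, and highest within 5 kb, in the average of all 20 IP profiles, and a peak's level is the mean signal of the 1-kb window on it. They are named by chromosome and position in kb, and neighbouring genes are given from the R64 gene table. The 32 CEN-proximal peaks are the nearest on each side of each CEN, 0.8 to 23.2 kb away. At the peaks edgeR called 37 of 285 (13.0%) lower and 51 (17.9%) higher, and with TMM scaling factors, which move the median of all peaks from 0.22 to 0.04, 44 fell and 23 rose.

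Among the 32 CEN-proximal peaks 28 fell and 0 rose. Their log2 fold changes had a median of -2.26, and the difference from the median of the peaks over 50 kb from a CEN was -2.57. At all 28 the triple mutant's libraries lay below both fkh1∆ fkh2-dsm libraries, and the highest adjusted p was 0.0043. Their median level was 14.0 and 14.6 times the mean in fkh1∆ fkh2-dsm and 2.48 and 2.14 in the triple mutant. The 253 other peaks had medians of 1.83 and 1.67 in the former and 2.12 and 2.23 in the latter, so that the typical CEN-proximal peak went from 7.67 and 8.72 times the typical other peak to 1.17 and 0.956 times it. CEN-proximal peaks made up 24 and 22 of the 30 highest peaks of the fkh1∆ fkh2-dsm libraries and 4 of 30 in each library of the triple mutant.

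The 28 peaks that fell kept between 4.14% and 70.9% of their mean level in fkh1∆ fkh2-dsm, with a median of 17.3%. Of these, 8 kept under 10% and 6 kept over 50%. The largest fall was at ori_XII_140, in SPO75 beside ORC3, the gene of a subunit of the origin recognition complex, 11.3 kb from CEN12 (chromosome XII, 139001 to 140000). Its level was 11.9 and 15.2 in fkh1∆ fkh2-dsm and 0.537 and 0.588 in the triple mutant, so a site at over 10 times the mean went below the mean in both libraries (log2 fold change -4.60, SE 0.22, edgeR adjusted p = 4.4e-24). At ori_I_147, in VPS8 and 4.9 kb from CEN1 (146301 to 147300), the level went from 16.4 and 15.5 to 0.887 and 0.784 (log2 fold change -4.24, SE 0.17). The peak ori_IX_342, between FAA3 and URM1 (341501 to 342500), went from 19.8 and 19.2 to 1.03 and 1.29 (-4.10, SE 0.20). The other 2 of the 5 largest falls were ori_XVI_553, in ULA1 (552451 to 553450), from 12.9 and 15.0 to 0.887 and 0.706, and ori_XI_448, in ECM9 (447351 to 448350), from 20.5 and 20.5 to 1.25 and 1.16. These 5 were chosen for the size of their fall, and they ended between 0.537 and 1.29 times the library mean.

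**Figure D2:**
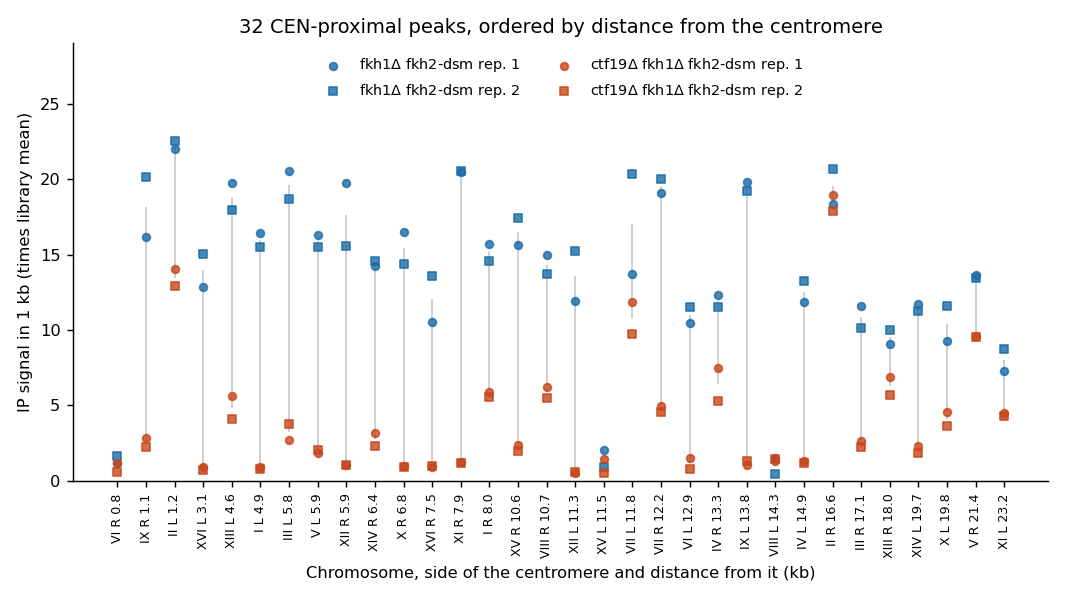
Level in 1 kb (times library mean, vertical axis) of each of the 32 CEN-proximal peaks, ordered by distance from its CEN and labelled by chromosome, side and distance in kb, with 1 point per library. The points of ctf19∆ fkh1∆ fkh2-dsm lie below those of fkh1∆ fkh2-dsm at 28 peaks and overlap them at 4, among them the right peak of CEN2 at 16.6 kb.

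Distance from the CEN went with the size of the fall only in part. The median log2 fold change was -2.38 at the 6 peaks within 5 kb, -3.36 at the 8 peaks at 5 to 10 kb, -2.03 at the 11 peaks at 10 to 15 kb and -0.87 at the 7 peaks at 15 to 25 kb. Over the 32 peaks Pearson's r between distance and log2 fold change was 0.36 and Spearman's rho 0.35, and these peaks share libraries and, in pairs, a CEN. Within the step of 10 to 15 kb alone the values ran from -4.60 to 0.35.

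The 4 CEN-proximal peaks that were not called fall into 2 kinds. The weak ones, ori_VI_150 (in LOC1, 0.8 kb from CEN6), ori_XV_315 (in TOP1, the gene of topoisomerase I) and ori_VIII_91, had levels of 0.472 to 2.03 in fkh1∆ fkh2-dsm, and their counts are low. Leaving out ctf19∆ fkh1∆ fkh2-dsm replicate 1 brought ori_VI_150 and ori_XV_315 below the threshold as falls (log2 fold change -1.21 and -1.55, edgeR adjusted p = 0.0248 and 0.00677). Without fkh1∆ fkh2-dsm replicate 2, ori_XV_315 was also called lower (-0.96, adjusted p = 0.0465), and without fkh1∆ fkh2-dsm replicate 1, ori_VIII_91 was called higher (1.56, adjusted p = 0.00169). The strong one was ori_II_255, 16.6 kb from CEN2 beside HHF1, a histone H4 gene (254251 to 255250). It stood at 18.4 and 20.7 in fkh1∆ fkh2-dsm and at 18.9 and 17.9 in the triple mutant, where it was the highest of all 285 peaks by the mean of the 2 libraries (log2 fold change -0.08, SE 0.14, edgeR adjusted p = 0.69).

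The other peak of CEN2 fell by less than most. This left peak, ori_II_237, lies 1.2 kb from CEN2 beside HTB2, a histone H2B gene (236501 to 237500), and its levels were 22.0 and 22.5 in fkh1∆ fkh2-dsm and 14.0 and 12.9 in the triple mutant, a fall that kept 60.6% of the signal and is among the 6 that kept over 50% (log2 fold change -0.72, SE 0.13, edgeR adjusted p = 8.2e-06). Over the 50 kb centred on CEN2 the mean signal was 4.55 and 5.16 in fkh1∆ fkh2-dsm and 4.30 and 4.47 in the triple mutant, a ratio of 0.903. At the other 15 CENs this ratio lay between 0.128 at CEN12 and 0.663 at CEN6. Around CEN2, 6 of 49 windows were lower, against 13 to 42 windows at each other CEN.

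The pair of origins at CEN10 shows how unequal the sides of a CEN can be. The right peak, ori_X_443, in SAG1 6.8 kb from the CEN (442601 to 443600), went from 16.5 and 14.4 to 0.953 and 0.902 (log2 fold change -4.06, SE 0.19). The left peak, ori_X_417, between RPC17 and NOP9 19.8 kb from the CEN (416001 to 417000), went from 9.28 and 11.6 to 4.57 and 3.61 (-1.32, SE 0.16, edgeR adjusted p = 7.8e-10). Both peaks fell at 12 of the 16 CENs and 1 of the pair at the other 4, and the log2 fold changes of a pair differed by 0.09 at CEN14 to 3.22 at CEN11. On chromosome V, ori_V_174, beside TIR1 21.4 kb from CEN5 (173101 to 174100), had the smallest fall called among the CEN-proximal peaks, from 13.6 and 13.4 to 9.61 and 9.56 (-0.50, SE 0.14, adjusted p = 0.0043).

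Peaks behind the CEN-proximal ones were lower in part. Of the 9 further peaks within 25 kb of a CEN, 4 fell (44.4%, beside 13.0% over all peaks) and 0 rose, with a median of -0.68. A strong peak among those not called was ori_VI_167, beyond ori_VI_150 on the right of CEN6, named after its values were seen. It stood at 11.5 and 13.0 in fkh1∆ fkh2-dsm and at 12.2 and 10.7 in the triple mutant, where the groups overlap. The deepest of the falls, at ori_XI_457, between FOX2 and TOF2 17.1 kb from CEN11 (456551 to 457550), was from 12.8 and 15.7 to 0.876 and 0.274 (log2 fold change -4.47, SE 0.23, edgeR adjusted p = 5.7e-23). On chromosome XV, ori_XV_349 beside TIR2 (348001 to 349000) went from 5.99 and 9.65 to 1.42 and 1.98 (-2.21, SE 0.24), and ori_XV_309 in RCL1 (308051 to 309050) from 6.86 and 7.80 to 2.00 and 2.20 (-1.80, SE 0.20). Beyond 25 kb, 5 of 244 peaks fell. The largest of these falls was at ori_IX_412, between DAL2 and DCG1 of the allantoin gene cluster (411401 to 412400), 56.1 kb from CEN9, from 2.36 and 2.74 to 1.30 and 0.960 (-1.12, SE 0.19, adjusted p = 5.4e-06).

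In shares of a library, the loss at the CENs stood against a gain spread over the chromosome arms. Shares make such a gain follow from the loss by construction, so only its distribution is described. The share of counts over 25 kb from a CEN went from 66.8% and 65.7% in fkh1∆ fkh2-dsm to 84.4% and 84.9% in ctf19∆ fkh1∆ fkh2-dsm, a rise of 18.4 percentage points or 1.28-fold, equal to 0.35 on the log2 scale. Bins within 5 kb of an arm peak took 32.3% and 32.4% before and 41.9% and 42.8% after, 1.31-fold. The rest of the arms took 32.8% and 31.5% before and 40.5% and 40.3% after, 1.26-fold. The peaks thus made up 54.3% of the gain, having held 48.9% of the arm signal in fkh1∆ fkh2-dsm, and the rest made up 44.7%, having held 48.6%. For these shares too the exact two-sided permutation p of 0.33 is the smallest that 4 libraries allow.

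**Figure D3:**
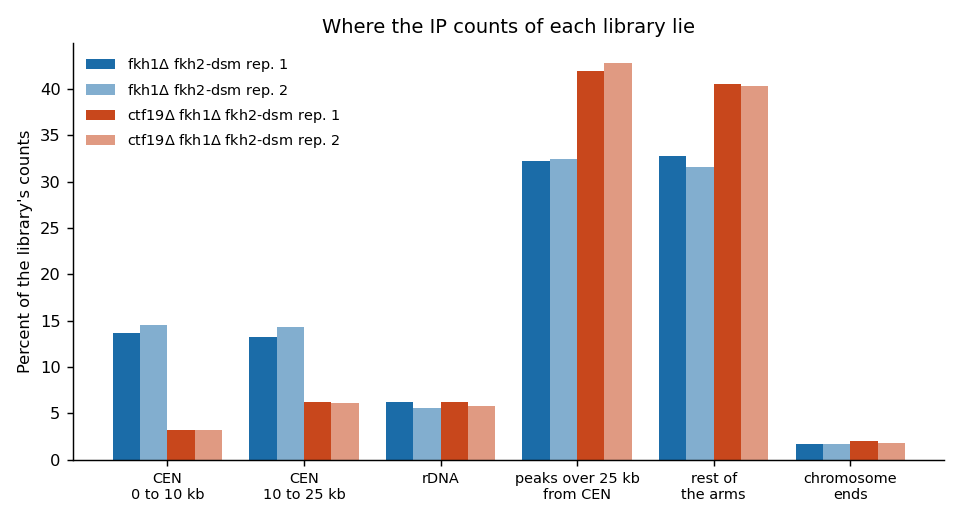
Percent of each library's counts (vertical axis) in 6 compartments that do not overlap, 1 bar per library and no mean drawn. Both CEN bars of ctf19∆ fkh1∆ fkh2-dsm are under those of fkh1∆ fkh2-dsm, both kinds of arm bars are above them, and the rDNA bars overlap.

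As shares of the IP counts, the rDNA and the chromosome ends took little of the gain. The rDNA held 6.23% and 5.53% of the counts in fkh1∆ fkh2-dsm and 6.17% and 5.80% in the triple mutant, and these groups overlap (exact two-sided permutation p = 1). Its share of the Total libraries differed between the strains, at 12.4% and 11.0% in fkh1∆ fkh2-dsm and 9.29% and 9.15% in the triple mutant. Relative to Total, the rDNA signal was thus higher in the triple mutant, with IP over Total of 0.504 and 0.502 against 0.664 and 0.634. Arm DNA within 20 kb of a chromosome end and over 5 kb from peaks held 1.73% and 1.66% before and 1.97% and 1.79% after. This was 1.02% of the gain of the arms, from DNA that held 2.56% of the arm signal in fkh1∆ fkh2-dsm. Of the 12 peaks within 20 kb of an end, 0 were called in either direction by edgeR, also with TMM factors, and their median was 0.11, or -0.07 with TMM factors.

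The rise was similar on most chromosomes. Over 50 kb from its CEN, the DNA of 15 of 16 chromosomes took a larger share in both libraries of ctf19∆ fkh1∆ fkh2-dsm than in either library of fkh1∆ fkh2-dsm, by 1.21-fold on chromosome VIII to 1.37-fold on chromosome V. The exception was chromosome VI, with 0.602% and 0.532% before and 0.599% and 0.505% after. Whole chromosomes differed with the part of their length near the CEN, which runs from 3.26% within 25 kb on chromosome IV to 21.7% on chromosome I. Chromosome I, the shortest, had the largest fall, from 2.85% and 2.82% of the counts to 1.56% and 1.62%, and chromosome IV, the longest, had the largest rise, from 11.1% and 11.6% to 13.0% and 13.0%. Over 16 chromosomes the log2 ratio of the shares and the percent of the chromosome within 25 kb of its CEN had a Pearson's r of -0.89 and a Spearman's rho of -0.91, as a description of 4 shared libraries.

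At single peaks on the arms the rise was small and broad. Of the 244 peaks over 25 kb from a CEN, 187 had a positive log2 fold change, and the quartiles were 0.03 and 0.50 around a median of 0.28. All 51 peaks that rose lay in this group, 28.6 kb or more from a CEN and on 14 chromosomes, with folds of 1.29 to 3.26 and a median of 1.68. With TMM factors 23 of the 51 were called higher, with DESeq2 31, and in a fit of the 4 libraries alone 14.

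**Figure D4:**
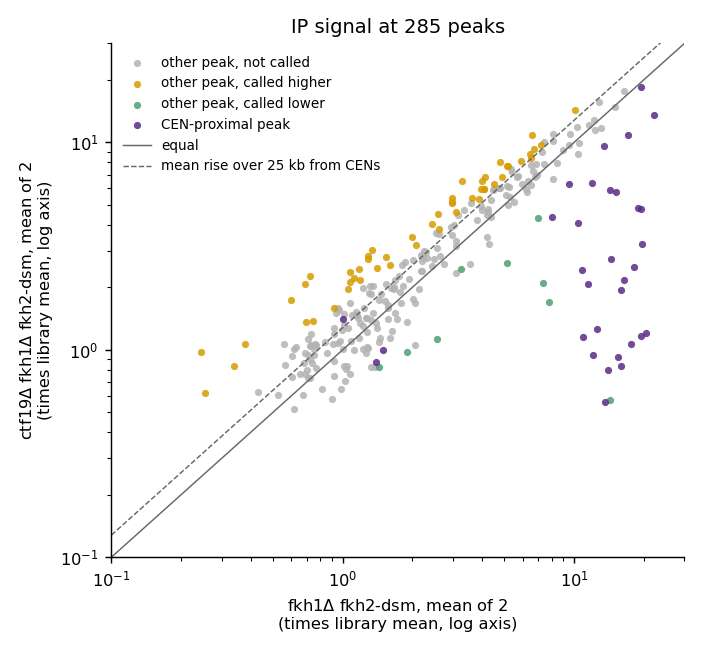
Mean level of each of the 285 peaks in fkh1∆ fkh2-dsm (horizontal, log axis) and ctf19∆ fkh1∆ fkh2-dsm (vertical, log axis), with lines of equal level and of the mean 1.28-fold rise of the arms. The 28 CEN-proximal peaks that fell lie below both lines, while ori_II_255 is near the line of equal level at upper right, ori_VIII_91 is above it, and ori_VI_150 and ori_XV_315 are at low level.

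The largest rises by fold were at peaks of low level. The largest, at ori_XIII_828 in CAT8 (827901 to 828900), was from 0.488 and 0 to 0.854 and 1.10 (3.26-fold, log2 SE 0.47), and it was not called without fkh1∆ fkh2-dsm replicate 2 (log2 fold change 0.98, edgeR adjusted p = 0.108). The peak ori_XI_387, in TFA1 (386451 to 387450), was at 0.797 and 0.643 before and at 2.22 and 2.29 after (3.08-fold, log2 SE 0.33, edgeR adjusted p = 9.1e-05). At ori_IV_1307, in HKR1 beside RAD30, the gene of DNA polymerase eta (1306951 to 1307950), it was 0.771 and 0.600 before and 1.63 and 2.51 after (2.92-fold). These 3 peaks, chosen among those whose groups did not overlap, were all below the mean in fkh1∆ fkh2-dsm. The peak ori_VII_530, in MTL1 (529501 to 530500), went from 0.771 and 0.429 to 2.28 and 1.22, a rise that was not called without ctf19∆ fkh1∆ fkh2-dsm replicate 1 (log2 fold change 0.95, edgeR adjusted p = 0.0807).

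Some origins that are strong in WT stayed low in both strains. The peak ori_XV_1053, between RDR1 and FRE3 (1052901 to 1053900), was at 16.9 and 19.2 in WT and 12.8 and 11.0 in ctf19∆, at 0.411 and 0.343 in fkh1∆ fkh2-dsm and at 1.26 and 0.882 in the triple mutant (2.87-fold higher, edgeR adjusted p = 0.00015). Its rise left it near the mean of the library. The sixth of the named rises, ori_III_40 between APA1 and YCL049C (39201 to 40200), was at 0.206 and 0.300 before and 0.624 and 0.608 after, and was not called by edgeR without fkh1∆ fkh2-dsm replicate 1 (log2 fold change 1.04, adjusted p = 0.133) or with a 500-bp window on the peak (1.22, adjusted p = 0.143). The level of ori_III_40 was 20.1 and 22.4 in WT and 0.519 and 0.369 in ctf19∆. Within this peak, positions 39501 to 39600 held 0 Total counts in both libraries of fkh1∆ fkh2-dsm, of the triple mutant and of ctf19∆, 1 and 4 in fkh1∆, and 133 and 203 in WT. Apart from FKH1 itself this was the only stretch of 2 or more bins that was free of counts in the 4 Total libraries of the 2 strains and covered in WT at 0.3 of the mean or more, and the strain descriptions list no change there. The cause of this gap was not tested.

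The 4 largest gains in signal units, among peaks called higher whose groups did not overlap, are named here after their values were seen. The peak ori_III_225, between TAH1 and TVS1, was at 7.38 and 5.83 before and 11.1 and 10.7 after (log2 fold change 0.70, SE 0.15, edgeR adjusted p = 0.00013), with 17.1 and 14.8 in WT. At ori_XVI_842, in TDA6, it was 11.1 and 9.13 before and 15.9 and 12.7 after (0.50, SE 0.14, adjusted p = 0.0055), a call that TMM factors did not keep (adjusted p = 0.071). At ori_VII_980, in SDA1, it was 3.08 and 3.47 before and 4.48 and 8.58 after, with triple mutant replicates far apart and levels of 0.671 and 0.931 in WT (0.99, SE 0.27, adjusted p = 0.0030). At ori_XIII_898, in ELP6, it was 4.42 and 5.19 before and 9.15 and 6.94 after (0.77, SE 0.17, adjusted p = 0.00023). That the groups did not overlap was a condition of this choice, which 49 of the 51 peaks that rose met. The highest arm peak of the triple mutant, ori_XI_330 in TOA2, was already at 16.2 and 16.7 in fkh1∆ fkh2-dsm and was at 19.5 and 16.0 in the triple mutant, where the groups overlap (log2 fold change 0.12, adjusted p = 0.59).

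Peaks that rose were found in most classes of origin. Of the 46 Fkh1-dependent peaks (at least 2-fold lower in fkh1∆ than in WT, at an adjusted p under 0.05), 12 rose and 2 fell, with a median of 0.36, beside 17.9% higher and a median of 0.22 over all peaks. Their median level was 8.45 and 8.61 in WT, 1.80 and 1.67 in fkh1∆ fkh2-dsm and 2.77 and 2.37 in the triple mutant. Of the 67 peaks that are not CEN-proximal and in the upper of 3 equal classes by WT signal, 18 rose and 5 fell (median 0.19), of the 93 in the middle class 21 rose and 4 fell (0.32), and of the 93 in the lowest class 12 rose and 0 fell (0.25). With TMM factors the 3 classes by WT signal gave 7 higher and 7 lower (median 0.01), 9 and 6 (0.14), and 7 and 3 (0.07), so the excess of rises in the upper class depends on the scaling. With TMM factors the Fkh1-dependent peaks gave 8 higher and 3 lower, with a median of 0.18. The number of peaks at 2 times the mean or more hardly moved, 147 and 144 in fkh1∆ fkh2-dsm and 151 and 154 in the triple mutant, but of these 30 and 29 were CEN-proximal before and 18 and 17 after. Other peaks at 10 times the mean or more numbered 10 and 11 before and 16 and 14 after.

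Rises were also called away from every peak. Of the windows over 25 kb from a CEN, 452 of 2311 within 5 kb of a peak were higher, 19.6%, against 529 of 8127 (6.51%) farther from peaks, beside 8.78% of all windows. With TMM factors 178 and 272 were higher. The median log2 fold change was 0.42 in the 2311 windows near peaks, or 0.25 with TMM factors. In all 8127 windows away from peaks it was 0.32, or 0.15 with TMM factors. Arm DNA near peaks held 32.4% of the fkh1∆ fkh2-dsm counts in 19.8% of the genome, and the rest of the arms 32.2% in 68.9%. The part of this depth in the shares called was not tested. The 529 windows, chosen for being higher, had a median level of 0.274 times the mean before and 0.895 after Ctf19 loss, so most of them stayed below the mean. In 83 of them the mean of the triple mutant reached 2 times the library mean, with a highest value of 5.36. Their median count in fkh1∆ fkh2-dsm was 11 and 6, so a few reads set each level. The 5 runs with the largest fold were single windows in which both fkh1∆ fkh2-dsm libraries held 0 counts, on chromosome XIV from 153001 (58 and 13 counts in the triple mutant), VII from 272001 (60 and 8), XIII from 662001 (39 and 16), and IV from 1181001 (20 and 30) and 22001 (30 and 15). Against a floor of 3 counts over the 2 libraries, these were 10.3, 9.91, 8.02, 7.29 and 6.56-fold higher. A read adds a count to each bin it overlaps, so 3 counts can stand for fewer reads, and these folds are no lower bounds. A tested window needed a mean count of at least 10 over the 4 libraries, so these 5 passed only through the triple mutant. They were also chosen for their fold, so the folds are a description and no test.

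The effect of Ctf19 loss was then set beside the same loss in cells with Fkh activity, from ctf19∆ and WT, where 125 of 285 peaks (43.9%) and 31 of the 32 CEN-proximal peaks fell. Within 25 kb of the CENs, WT held 17.9% and 18.4% of the counts and ctf19∆ 8.10% and 8.00%, a difference of -10.1 points against -18.5 points in cells without Fkh activity. By this 25-kb share the strains without Ctf19 ended close together, at 8.05% and 9.38% on average, and fkh1∆ fkh2-dsm started from a higher share than WT, 27.9% against 18.2%. Within 10 kb they stood apart, with 1.83% and 1.87% in ctf19∆ and 3.20% and 3.18% in the triple mutant. At 17 of the 32 CEN-proximal peaks both triple mutant libraries lay above both ctf19∆ libraries, and at 7 below them. These counts were not made over all 285 peaks, so they cannot be read as particular to the CEN-proximal ones. At the CEN-proximal peaks the 2 log2 fold changes had a Pearson's r of 0.84 and a Spearman's rho of 0.82 over 32 peaks, with no library in common. All 26 CEN-proximal peaks at least 2-fold lower in ctf19∆ than in WT also fell here. Of the 15 other peaks of that kind 6 fell and 3 rose, beside 13.0% lower and 17.9% higher over all peaks. The rises include ori_III_40, which lacks Total counts over 100 bp in ctf19∆.

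**Figure D5:**
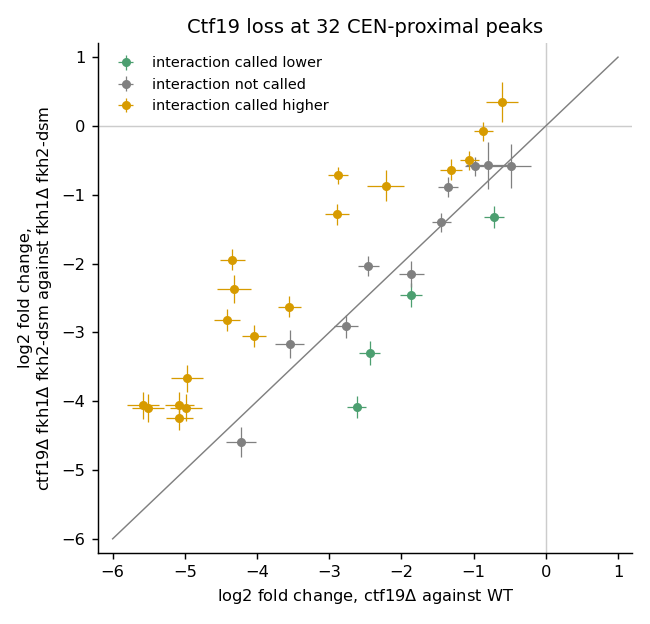
Log2 fold change of the 32 CEN-proximal peaks on Ctf19 loss in cells with (horizontal) and without (vertical) Fkh activity, with SE bars from edgeR, the line of equal effects, and colour for the edgeR test of the difference. Above the line lie 24 points, of which 18 were called, and below it 8, of which 4 were called.

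The difference between the effects was tested as an interaction in the same fit. Over all peaks, 124 of 285 (43.5%) had a positive and 7 (2.46%) a negative interaction, but with TMM factors the counts were 19 and 37, and with DESeq2 20 and 36, so that the prevailing direction depends on the scaling. At the CEN-proximal peaks 18 were positive and 4 negative, and 6 and 8 with TMM factors. The 3 peaks given next were called in the same direction under both scalings. At ori_II_237 beside CEN2, Ctf19 loss took the level from 16.7 and 18.6 in WT to 2.40 and 2.39 in ctf19∆, but from 22.0 and 22.5 to 14.0 and 12.9 in cells without Fkh activity (interaction log2 2.16, edgeR adjusted p = 2.3e-13). At ori_XIII_264, 4.6 kb from CEN13 (263251 to 264250), it went from 15.0 and 17.3 to 0.893 and 0.516 with Fkh activity and from 19.7 and 18.0 to 5.60 and 4.10 without (2.40, adjusted p = 6.0e-12). The reverse held at ori_XI_448, at 19.8 and 22.7 in WT, 3.57 and 3.25 in ctf19∆, and 1.25 and 1.16 in the triple mutant (-1.46, adjusted p = 2.0e-07). WT differs from the other 3 strains in the site of its BrdU cassette and at ori_III_40, and the part of these differences in the interaction was not tested.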

How the data were processed

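Counts per 50-bp bin, as deposited by the authors, are raw numbers of overlapping reads that were not smoothed or scaled, and a read counts in each bin it overlaps. The submitters' notes name Bowtie2, SAMtools and bedtools, and their versions and the genome build are not given in the sources used here. Samples were grouped by genotype label. Members, lists and tests were chosen with earlier results of these data known. Library size was the sum of all bins. Windows of 1 kb were tested with the edgeR (version 4.0.16) quasi-likelihood test on all 20 IP libraries, with strain as the only factor and Benjamini-Hochberg adjustment over 11231 windows or, in a separate fit, over 285 peaks, and calls are at an adjusted p under 0.05. SEs are the log2 fold change divided by the square root of F. Of 12063 windows, 22 in the rDNA, 9 over CTF19, FKH1 or FKH2, 76 with Total signal outside 0.5 to 2 times the mean and 725 with a mean count under 10 were left out. Of 303 peaks, 2 in the rDNA and 16 near chromosome ends were left out. CENs were placed midway between flanking genes of the R64 table, which also gave gene names, the rDNA bounds and the positions of CTF19, FKH1 and FKH2. Distances and zones thus rest on R64 coordinates. The named peaks are the 5 lowest and 5 highest changes among CEN-proximal peaks, the 6 largest rises and 4 largest falls among other called peaks whose groups did not overlap, the CEN10 pair, and the 3 lowest adjusted p in each direction of the interaction, with the 5 runs of higher windows over 5 kb from peaks that had the largest fold. DESeq2 (version 1.42.0), TMM factors, other library sizes, windows and peak sets, and leaving out libraries were alternatives. The median peak held 80, 49, 201 and 113 counts in the 4 libraries. The tests were run on simulated counts. R was version 4.3.3 and Python 3.11.15. The ChIP-seq files of the series were not used.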

Additional observations from a re-analysis of the deposited data

Results flagged for a closer look

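The effect of Ctf19 loss differed between cells with and without Fkh activity, by the interaction test of edgeR, at 124 peaks with a positive and 7 with a negative value, and the prevailing direction turned with TMM factors, to 19 and 37. The named peaks whose value differed are given on the log2 scale. It was 2.40 at ori_XIII_264 and 2.16 at ori_II_237. At ori_III_40 it was 6.81, with levels of 20.1 and 22.4 in WT and 0.519 and 0.369 in ctf19∆. This peak lacks Total counts over 100 bp in ctf19∆ and both strains without Fkh activity. At ori_III_40 an effect of Ctf19 loss thus cannot be told apart from that gap. The interaction value was -1.46 at ori_XI_448, -1.66 at ori_III_58, in SRO9 (57651 to 58650), with levels of 0.430 and 0.497 (WT), 0.937 and 0.885 (ctf19∆), 1.23 and 1.42 (fkh1∆ fkh2-dsm), and 0.931 and 0.725 (the triple mutant), and -1.15 at ori_XII_490, which lies beside the rDNA and has a Total signal of 20.5 times the mean.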

How the results depend on the processing

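Counts of higher windows and peaks depended on the scaling and the libraries in the fit. With TMM factors, 450 windows and 23 peaks were higher, with DESeq2 569 and 31, and with the 4 libraries alone 64 and 14, where 359 windows were lower. With 500-bp windows on the peaks 30 were higher, and 30 with peaks of the smoothed profile, an alternative added after seeing the data. In 2-kb windows 379 were lower. Interaction calls went from 131 to 56 with TMM factors, 37 lower and 19 higher, and 56 with DESeq2, where 36 were lower and 20 higher. With the Total library as library size edgeR called 0 windows, 0 peaks, 0 CEN-proximal peaks and 0 interactions, with the counts at an unadjusted p under 0.05 given above, so all named peaks lost any call they had. The fall at ori_V_174 became 0.038, while the log2 fold change was -4.19 at ori_XII_140 and -3.69 at ori_I_147. Leaving out 1 library each gave 529 to 744 windows lower, 636 to 1414 higher, 35 to 41 peaks lower, 30 to 53 higher, and 28 to 30 CEN-proximal peaks lower, and 108 to 134 interactions, 5 to 11 of them lower and 99 to 126 higher. The fewest higher windows came without ctf19∆ fkh1∆ fkh2-dsm replicate 2, and the fewest higher peaks without its replicate 1. The loss within 25 kb of CENs was -21.0 points after subtracting the median bin, -15.7 as IP over Total, -10.9 within 10 kb, and -19.4 to -17.6 with a library left out. With a replicate block 614 windows and 36 peaks were lower, 960 and 50 higher, and 132 interactions were called; same-numbered libraries share only a number (r = -0.06 between their deviations), and no named peak changed its call. Apart from the Total library size, each alternative called 27 to 30 CEN-proximal peaks lower, 27 of them with 500-bp windows. Depth limits single windows, with a median of 9 to 44 counts per window in the 4 libraries. The causes of these changes were not tested.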
